A study of Mus musculus with 8 samples.

Results

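Med1, Akap1 and Slfn2 are 3 mouse genes on chromosome 11, the chromosome that also carries Ccl3. They were chosen by their difference between arrays labelled Ccl3-/- and wild-type arrays in these data, and by their location, so their genotype values are given as a description, without a test. The 3 genes are read by 6 probe sets, 1 for Med1, 3 for Akap1 and 2 for Slfn2, among the 12488 probe sets of the table. All 6 passed the filter on dim signals, which left 8150 probe sets and 6181 named genes. Probe sets stood for the members through the gene symbols of the platform annotation.

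The arrays measured total RNA from the olfactory mucosa of mice after removal of both olfactory bulbs, in 4 groups of 2 arrays. The groups were mice labelled Ccl3-/- injected with CCL3, C57BL/6 wild-type mice injected with CCL3, mice labelled Ccl3-/- injected with carrier, and C57BL/6 wild-type mice injected with carrier. All of them, the wild-type carrier mice included, had been bulbectomised. The labels give no dose, age, time or strain history of the mutant. Whether 2 arrays of a group came from different animals is not stated either, so errors and p-values cover the array-to-array spread alone, be it technical or not. Olfactory neuron RNA was present on every array: the mature neuron gene Omp had an intensity of 16002 and 19808 on the Ccl3-/- CCL3 arrays, 12511.5 and 14771 on the wild-type CCL3 arrays, 21779 and 8657 on the Ccl3-/- carrier arrays, and 4251 and 12949 on the wild-type carrier arrays. Median intensity per array was 581.4 to 660.3. Wild-type carrier replicate 1 stood apart, with a Gapdh 3' to 5' ratio of 2.59 against 0.755 to 1.31 on the other arrays, and member values that moved by more than 1.5 times without it are given both ways.

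Med1 is a subunit of Mediator, the complex that links transcription factors to RNA polymerase II, and it is the subunit through which many nuclear receptors contact the complex. Akap1 is an A-kinase anchoring protein, which holds protein kinase A, and also RNA, at the outer membrane of mitochondria. Slfn2 belongs to the Schlafen family, a mouse gene cluster expressed in lymphoid and myeloid cells and raised by interferon, and loss of its function in mice disturbs the quiescence of T cells. Ccl3 lies in a cluster of CC chemokine genes, and a targeted allele is inherited together with nearby stretches of its chromosome. No sequence of these animals was measured, so the role of linked variants was not tested.

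The promoter sequences below are given to compare the starts of the 3 genes. They are those of RefSeq in build GRCm38.p6, from 250 bases before to 50 after the transcription start, and come from C57BL/6J, not from these animals. All 3 genes matched the table. Capitals mark the letters of a searched motif on either strand, which no other motif overlapped. Akap1 has 3 entries, of which the most upstream is shown. The regions are chr11:98192857-98193156 (minus strand) for Med1, chr11:88864537-88864836 (minus strand) for Akap1 and chr11:83064862-83065161 (plus strand) for Slfn2.
Med1: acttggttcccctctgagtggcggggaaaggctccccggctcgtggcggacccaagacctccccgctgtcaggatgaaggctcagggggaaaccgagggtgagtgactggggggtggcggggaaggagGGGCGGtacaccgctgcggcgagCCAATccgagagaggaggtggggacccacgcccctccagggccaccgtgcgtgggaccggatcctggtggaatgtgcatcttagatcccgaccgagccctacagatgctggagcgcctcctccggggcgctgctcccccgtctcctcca
Akap1: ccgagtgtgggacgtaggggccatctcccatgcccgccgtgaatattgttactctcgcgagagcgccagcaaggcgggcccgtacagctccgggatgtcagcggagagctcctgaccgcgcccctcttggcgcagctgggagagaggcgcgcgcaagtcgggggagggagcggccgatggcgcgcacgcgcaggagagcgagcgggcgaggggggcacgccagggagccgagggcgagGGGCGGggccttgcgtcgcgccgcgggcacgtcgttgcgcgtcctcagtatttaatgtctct
Slfn2: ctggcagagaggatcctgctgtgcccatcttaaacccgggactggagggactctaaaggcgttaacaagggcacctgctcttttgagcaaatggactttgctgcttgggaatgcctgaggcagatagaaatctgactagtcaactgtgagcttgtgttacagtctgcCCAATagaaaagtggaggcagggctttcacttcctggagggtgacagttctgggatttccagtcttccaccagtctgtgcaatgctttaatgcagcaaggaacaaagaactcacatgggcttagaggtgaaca

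Med1 and the upstream start of Akap1 had GC-rich promoters, with 22 and 40 CpG dinucleotides and a GC content of 68.3% and 70.7%. The other Akap1 entries had 5 and 4 CpG and a GC content of 56.3% and 56.0%. The Slfn2 promoter had 2 CpG and a GC content of 49.7%, against medians of 7 CpG and 52.7% over 32851 promoters of 300 bases. The GC box GGGCGG occurred once each in Med1 and Akap1 and in 35.7% of all promoters, and CCAAT occurred once each in Med1 and Slfn2 and in 37.4% of all. The TATA box TATAAA (13.6% of all promoters), the nuclear receptor core motif AGGTCA (16.3%) and the interferon-type repeat GAAANNGAA (8.56%) were found in none of these 3 windows, which says only that these letters are not there.

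The targeted gene was read first, because it checks the labels. Ccl3 had an intensity of 727.3 and 729.5 on the Ccl3-/- CCL3 arrays and 812.2 and 803.6 on the Ccl3-/- carrier arrays. It had 223.1 and 386.5 on the wild-type CCL3 arrays and 332.3 and 159.4 on the wild-type carrier arrays. The signal was therefore higher on every array labelled Ccl3-/-, against the direction of the label. The extent of the deletion is not given, and a probe set outside it checks nothing. Groups keep their label names here, and each genotype direction depends on those labels being right.

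Med1 separated the genotypes on all 8 arrays. The probe set 160603_at had an intensity of 1418.3 and 1384.8 on the Ccl3-/- CCL3 arrays and 335.8 and 361.0 on the wild-type CCL3 arrays. It had 1133.2 and 1404.7 on the Ccl3-/- carrier arrays and 493.3 and 487.8 on the wild-type carrier arrays. The lowest Ccl3-/- array was thus well above the highest wild-type array, and both wild-type CCL3 arrays were dimmer than the filter value of 362.7. The mean was 1335 ± 135 on the arrays labelled Ccl3-/- and 419 ± 82.7 on the wild-type arrays (SD, n = 4 each). On the scale of log2(intensity + 102.3), which understates differences of dim genes, the difference was 1.47 ± 0.18 (SE), or 2.77-fold. It was 1.74 ± 0.25 after CCL3 and 1.20 ± 0.25 after carrier. By size of the averaged difference, Med1 ranked 7 among the 8150 tested probe sets. Leaving out any of the 8 arrays, which cannot undo a separation, gave a difference between 1.40 and 1.54. Over all tested probe sets 1.31% were separated and higher on the arrays labelled Ccl3-/- and 1.88% separated and lower, from which nothing is read for Med1, since it was chosen on this contrast.

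**Figure D1:**
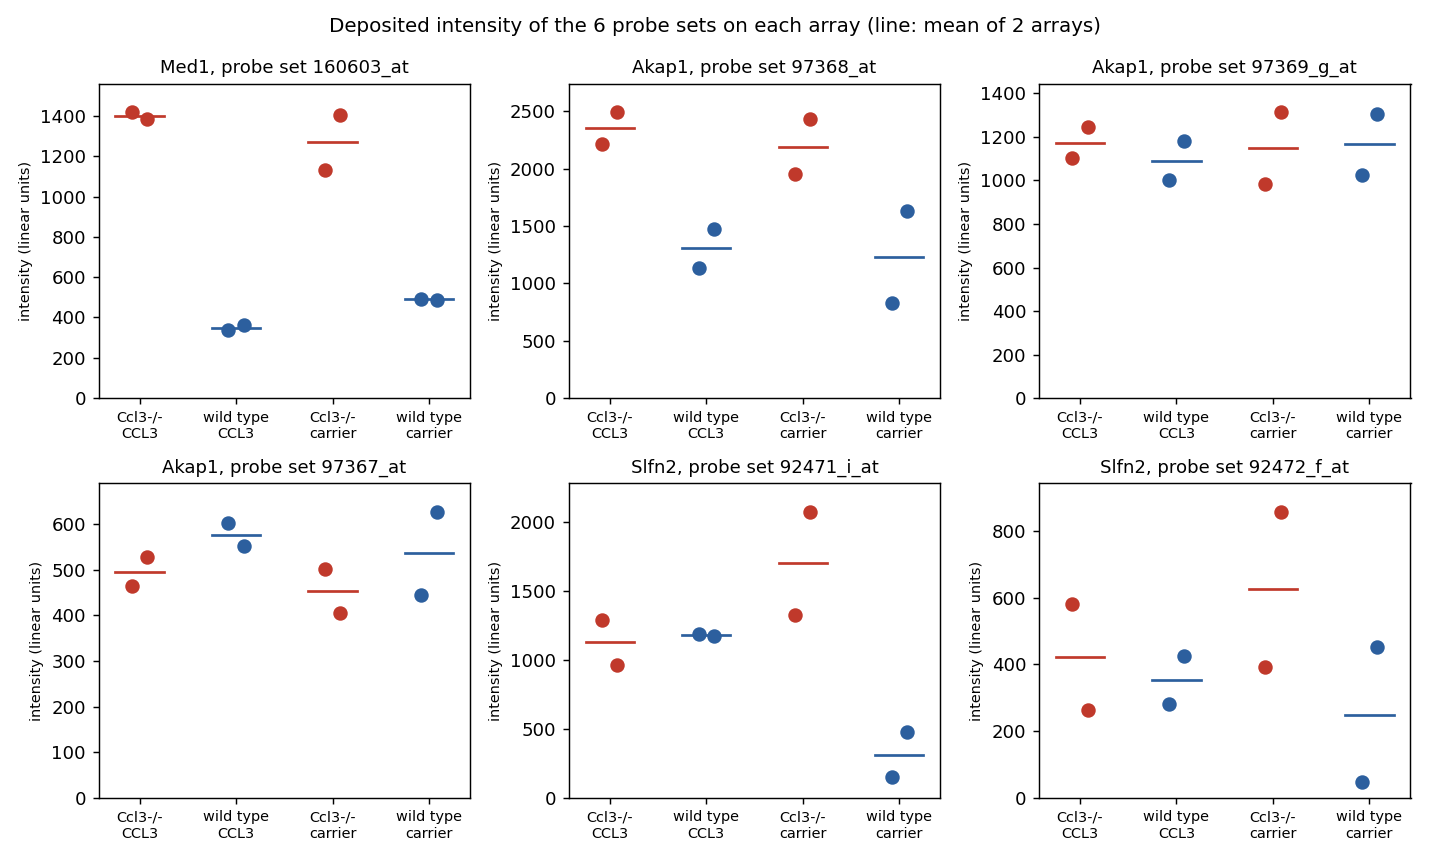
Deposited intensity (linear scale, vertical axes from 0) of the 6 probe sets of Med1, Akap1 and Slfn2 on each array, with red points for arrays labelled Ccl3-/-, blue points for wild-type arrays and a line for the mean of 2 arrays. Med1 and the Akap1 probe set 97368_at are higher on every Ccl3-/- array than on any wild-type array, while the Slfn2 probe set 92471_i_at is low on the 2 wild-type carrier arrays (147.1 and 477.5).

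Other Mediator genes did not share the pattern of Med1. The array held 12 of 30 other genes of the list, of which 11 were tested, with 13 probe sets. None had an adjusted p under 0.05 for the genotype average in limma, the same as over all tested probe sets (0.0%). At an unadjusted p under 0.05 the count was 0 higher and 1 lower, against 3.03% higher and 2.9% lower over all tested probe sets. Their median difference was 0.03, against -0.01 over all tested probe sets, and 7 lay above 0 and 6 below. Med22, a subunit of the Mediator head, was the lower one, at -0.82 ± 0.20 (SE, n = 4 per genotype, adjusted p = 0.808 in limma) by the probe set 161561_r_at and -0.27 ± 0.17 (adjusted p = 0.810) by 98430_at. By 98430_at the genotypes of Med22 did not overlap, but narrowly, with 1755.6 on the highest Ccl3-/- array and 1760 on the lowest wild-type array. Cdk8, the kinase of the Mediator kinase module, was at -0.01 ± 0.19, and its partner Ccnc at 0.39 ± 0.21. Med24, a subunit that sits beside Med1 in the complex, was at 0.06 ± 0.21.

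A list of nuclear receptors, their coregulators and the transcription factor genes Gata1 and Cebpb had a median difference of -0.02 over 15 tested probe sets of 14 genes, from 24 genes on the array. None had an adjusted p under 0.05, and at an unadjusted p under 0.05 a single one was higher. That one was Esr1, the oestrogen receptor alpha gene, at 0.91 ± 0.35 (SE, n = 4 per genotype, adjusted p = 0.808 in limma). Esr1 had an intensity of 698.7 and 202.5 on the Ccl3-/- CCL3 arrays and 117.6 and 149.7 on the wild-type CCL3 arrays. It had 437.8 and 308 on the Ccl3-/- carrier arrays and 139.7 and 221.6 on the wild-type carrier arrays, and the genotypes overlapped. Only the Ccl3-/- arrays of 698.7 and 437.8 were above the filter value. Esr1 was thus tested through the genotype in which it was higher. Thra, a thyroid hormone receptor gene, was at -0.44 ± 0.22 (adjusted p = 0.808).

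Akap1 was separated by 1 of its 3 probe sets. The probe set 97368_at had an intensity of 2220.5 and 2493.5 on the Ccl3-/- CCL3 arrays and 1136.1 and 1477.8 on the wild-type CCL3 arrays. It had 1952.1 and 2436.6 on the Ccl3-/- carrier arrays and 832.6 and 1631.8 on the wild-type carrier arrays. All 4 arrays labelled Ccl3-/- were above all 4 wild-type arrays, with means of 2276 ± 246 and 1270 ± 357 (SD). The difference was 0.83 ± 0.23 on the log2 scale (SE, 1.77-fold), at 0.81 ± 0.32 after CCL3 and 0.84 ± 0.32 after carrier. It ranked 119 by size among the tested probe sets. Leaving out wild-type carrier replicate 1, which cannot undo a separation, gave 0.60 over both injections and 0.40 after carrier.

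The other Akap1 probe sets did not separate the genotypes. The probe set 97369_g_at was designed from the same GenBank record as 97368_at, and its suffix marks probes shared by a group of sequences. It ranged from 984.8 to 1313.9 on the arrays labelled Ccl3-/- and from 1002.5 to 1306.9 on the wild-type arrays, with a difference of 0.04 ± 0.18 (-0.04 without wild-type carrier replicate 1). The probe set 97367_at, from another record, ranged from 404.2 to 527.4 on the arrays labelled Ccl3-/- and from 445.4 to 626.5 on the wild-type arrays, with a difference of -0.19 ± 0.21. Without wild-type carrier replicate 1 its genotypes no longer overlapped, in the opposite direction to 97368_at (-0.29). The label of a gene that separates the genotypes therefore holds for 97368_at and not for Akap1 as a whole.

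The unequal change of the Akap1 probe sets could be followed array by array. The log2 value of 97368_at minus that of 97369_g_at, centred on its mean over all arrays, was 0.43 and 0.43 on the Ccl3-/- CCL3 arrays and -0.35 and -0.22 on the wild-type CCL3 arrays. It was 0.40 and 0.32 on the Ccl3-/- carrier arrays and -0.79 and -0.22 on the wild-type carrier arrays. The spread over the 4 arrays labelled Ccl3-/- was narrow (SD 0.05), and that over the wild-type arrays was wider (SD 0.27). Against 97367_at the same measure ran from 0.23 to 0.79 on the arrays labelled Ccl3-/- and from -0.76 to -0.26 on the wild-type arrays. Since 97368_at was picked for this contrast, these values describe how its signal parted from the rest of the gene and are not a test.

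**Figure D2:**
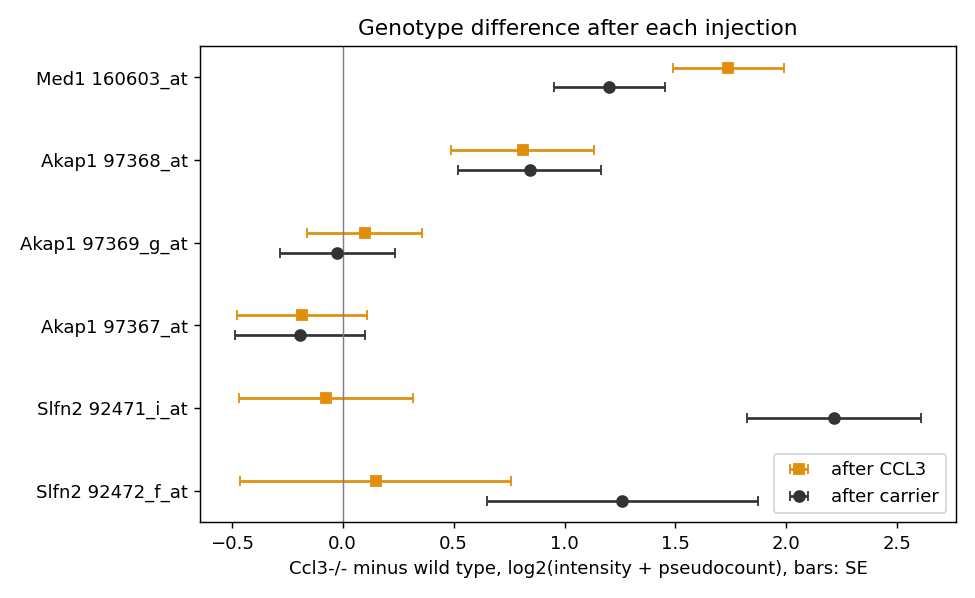
Difference between arrays labelled Ccl3-/- and wild-type arrays for each probe set on the log2(intensity + 102.3) scale, with squares after CCL3, circles after carrier and bars for the SE of the fit (n = 2 arrays per group). Med1 and the Akap1 probe set 97368_at lie above 0 after both injections, and the Slfn2 probe set 92471_i_at does so after carrier alone (2.21 against -0.07 after CCL3).

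Other genes of anchoring and cAMP signalling showed no shared shift with the genotype. Of 16 other anchoring proteins, 8 were on the array and 4 were tested with 6 probe sets. Their median difference was -0.06, none passed an unadjusted p under 0.05, and none was separated. Akap8, a nuclear anchoring protein, was at 0.44 ± 0.23, 0.53 ± 0.33 and -0.33 ± 0.26 by its 3 probe sets (SE, n = 4 per genotype), so its probe sets disagreed in sign. Of the 16 protein kinase A and cAMP genes, 13 were tested with 16 probe sets, with a median of 0.00 and 8 on either side of 0. Creb1, the transcription factor that protein kinase A phosphorylates, was the 1 probe set past an unadjusted p of 0.05, at 0.69 ± 0.27 (adjusted p = 0.808 in limma), and at 0.38 ± 0.28 by its other probe set. The regulatory subunit genes Prkar2a and Prkar1a were at 0.44 ± 0.23 and -0.11 ± 0.16. The mitochondrial list, mostly of proteins that act at the outer membrane, where Akap1 resides, had a median of 0.06 over 15 probe sets, with none past an unadjusted p under 0.05. Its highest value, 0.57, was that of Timm44, which belongs to the import machinery of the inner membrane.

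Slfn2 did not separate the genotypes over all 8 arrays. Its probe set 92471_i_at had an intensity of 1286 and 966.5 on the Ccl3-/- CCL3 arrays and 1190.4 and 1170.5 on the wild-type CCL3 arrays. It had 1329.1 and 2072.7 on the Ccl3-/- carrier arrays, against 147.1 and 477.5 on the wild-type carrier arrays. Both wild-type carrier arrays were thus low, and the wild-type CCL3 arrays lay among those labelled Ccl3-/-. The difference was 2.21 ± 0.39 after carrier (SE, 4.64-fold, rank 4 by size among the tested probe sets), -0.07 ± 0.39 after CCL3 and 1.07 ± 0.28 on average. Omitting wild-type carrier replicate 1 gave 1.61 after carrier, and omitting wild-type carrier replicate 2 gave 2.82. Leaving out Ccl3-/- CCL3 replicate 2 took away the overlap over both injections, with an average of 1.16.

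The second Slfn2 probe set, 92472_f_at, comes from the same GenBank record, and its suffix marks probes shared within a sequence family. It had an intensity of 582.4 and 262.8 on the Ccl3-/- CCL3 arrays and 282.7 and 425.9 on the wild-type CCL3 arrays. It had 392.9 and 857.5 on the Ccl3-/- carrier arrays and 47 and 451.8 on the wild-type carrier arrays. Here the genotypes overlapped after each injection as well. The carrier difference of 1.26 ± 0.61 rested on wild-type carrier replicate 1: it was 0.32 without that array, where the average over both injections was 0.23 in place of 0.71 ± 0.43, and omitting wild-type carrier replicate 2 gave 2.21.

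The Schlafen genes beside Slfn2 gave mixed values. Slfn4, which lies 5 genes away in the reference order, had an intensity of 351.9 and 262 on the Ccl3-/- CCL3 arrays and 178.2 and 161.5 on the wild-type CCL3 arrays. It had 644.5 and 502.1 on the Ccl3-/- carrier arrays and 364.5 and 240.9 on the wild-type carrier arrays. Within each injection both arrays labelled Ccl3-/- were higher, with a difference of 0.66 ± 0.25 on average (SE, adjusted p = 0.808 in limma, 3 of 8 arrays above the filter value). Slfn1, 3 genes from Slfn2, ranged from 269.6 to 400.9 on the arrays labelled Ccl3-/- and from 253.5 to 488.8 on the wild-type arrays, with a difference of -0.03 ± 0.26. A probe set shared by Slfn4 and Slfn3 was between 64.3 and 116.2 on the arrays labelled Ccl3-/- and between 18.5 and 99.3 on the wild-type arrays, and did not pass the filter. Schlafen genes are close copies of each other, and signal shared between them cannot be told apart.

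Interferon response and T cell quiescence are the settings in which Slfn2 is known, and no gene of either list had an adjusted p under 0.05 for genotype. Of 30 interferon response genes 21 were on the array and 17 were tested with 19 probe sets, with a median of 0.02. At an unadjusted p under 0.05 none was higher and 1 was lower: Irgm2, an interferon-induced GTPase gene, at -0.57 ± 0.23 (SE, n = 4 per genotype). The 12 probe sets of quiescence genes had a median of -0.09, with 1 above and 11 below 0 and none past an unadjusted p under 0.05. Over all tested probe sets 3945 lay above 0 and 4205 below.

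Slfn2 is expressed in leukocytes, so the summed intensity of leukocyte markers is given beside it, and all 3 sums overlapped between genotypes. In these bulk samples fewer cells of a type and less RNA per cell cannot be told apart. The summed intensity of 15 neutrophil markers on the array, 12 of them past the filter, was 96689 to 179540 on the arrays labelled Ccl3-/- and 91320 to 106261 on the wild-type arrays. Cxcr2, Mmp8 and Itgam were at or under the filter value on every array. The sum of 20 macrophage markers, 15 past the filter, was 45488 to 51685 on the arrays labelled Ccl3-/- and 41221 to 51977 on the wild-type arrays. That of 17 T, B and NK cell markers, 7 past the filter, was 3682 to 6335 on the arrays labelled Ccl3-/- and 5216 to 7534 on the wild-type arrays. On the wild-type carrier arrays, where Slfn2 was low, the neutrophil sums were 102732.5 and 91320, the macrophage sums 41221 and 51977 and the lymphocyte sums 5216 and 7534. The macrophage and lymphocyte sums were thus highest of all arrays on wild-type carrier replicate 2, where the neutrophil sum was lowest of all. On wild-type carrier replicate 1 the macrophage sum was lowest of all arrays. The T cell genes Cd3d, Cd3e, Cd3g, Cd8a and Cd8b1 were at or under the filter value on every array. No marker was listed at 0, and the part of these cells in the Slfn2 values was not tested.

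Single markers are given by list, with no test between lists. Of 14 neutrophil probe sets 4 were higher and 0 lower at an unadjusted p under 0.05, against 3.03% higher and 2.9% lower over all tested probe sets, none with an adjusted p under 0.05. Their median difference was 0.27, with 11 above and 3 below 0. The genotypes of Ngp and Camp, both granule proteins, did not overlap (2.61 ± 0.38 and 1.81 ± 0.43, SE, n = 4 per genotype). S100a8 (1.60 ± 0.48), a calcium-binding protein, and Mpo (1.20 ± 0.42), the neutrophil peroxidase, overlapped. The 18 macrophage probe sets had a median of -0.09 with 0 past an unadjusted p under 0.05. The 9 lymphocyte probe sets had a median of -0.40, with 8 below 0, and 1 higher and 2 lower, which were probe sets of immunoglobulin genes: Ighm by its probe sets both higher (0.90) and lower (-1.24), and Jchain (-0.67). The 10 red blood cell probe sets had a median of 0.31, with 8 above 0, and 1 higher, Alas2 (1.01 ± 0.19), an erythroid enzyme of haem synthesis. The 14 olfactory neuron probe sets had a median of -0.11 with none past it.

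**Figure D3:**
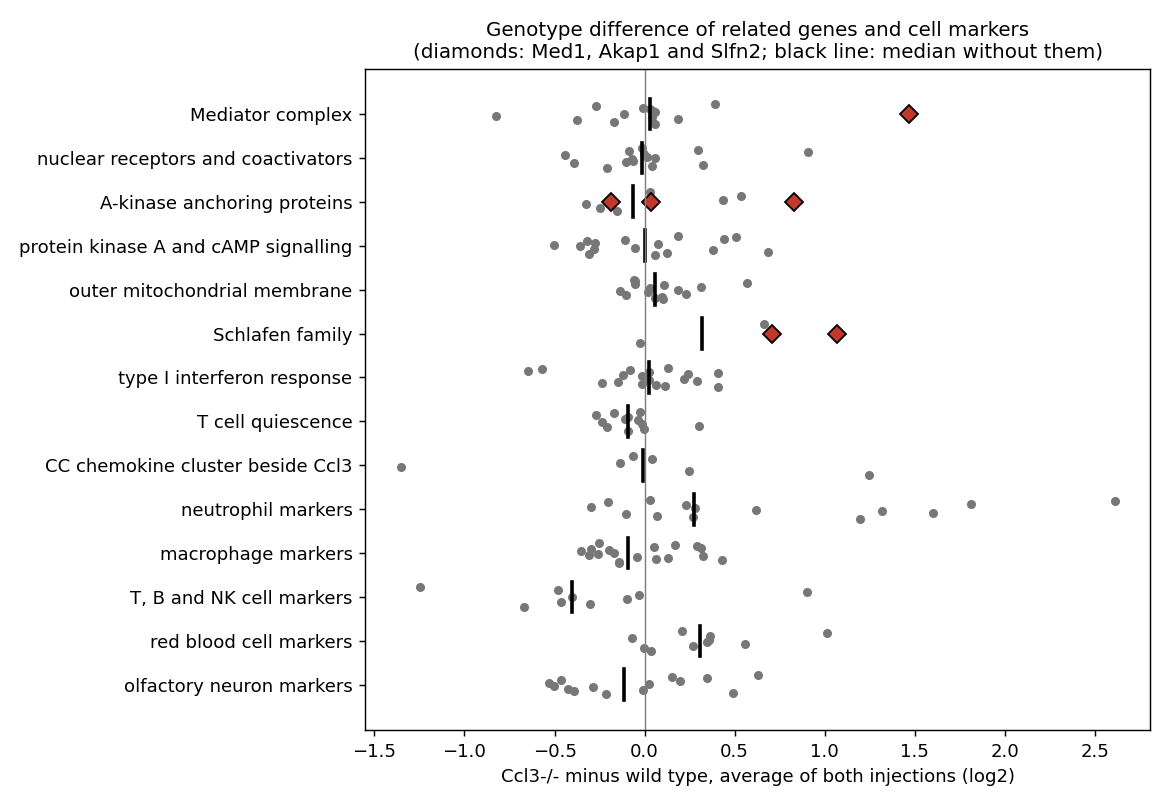
Genotype difference averaged over both injections (Ccl3-/- minus wild type, log2 scale), with a grey point for each tested probe set of a list, a black line for the list's median and red diamonds for the 6 probe sets of Med1, Akap1 and Slfn2. Med1 (1.47) lies outside the other Mediator genes, which run from -0.82 to 0.39.

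Injected CCL3 against carrier is the comparison of the members that the choice by genotype did not use directly. In this balanced design its average over both genotypes is independent of the genotype difference after either injection, provided that all groups spread equally. Wild-type carrier replicate 1 stood apart, so the independence may hold only roughly. No member probe set passed in limma, as none did over all tested probe sets (0.0% at an adjusted p under 0.05, and 4.53% at an unadjusted p under 0.05). Med1 was at -0.13 ± 0.18 (SE, 95% interval -0.52 to 0.27, adjusted p = 0.971 in limma). Akap1 was at 0.12 ± 0.23 by 97368_at (95% interval -0.39 to 0.63, adjusted p = 0.973), at -0.02 ± 0.18 by 97369_g_at and at 0.11 ± 0.21 by 97367_at. These intervals still allow changes of about the size of their ends. None of the 6 probe sets passed an unadjusted p under 0.05.

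Slfn2 had wider intervals than the other members. By 92471_i_at the difference between CCL3 and carrier was 0.61 ± 0.28 (SE, 95% interval -0.01 to 1.23, adjusted p = 0.969 in limma), and by 92472_f_at it was 0.09 ± 0.43 (95% interval -0.87 to 1.05, adjusted p = 0.990). Behind the average of 92471_i_at stood values of opposite sign, -0.53 ± 0.39 on the arrays labelled Ccl3-/- and 1.75 ± 0.39 on the wild-type arrays. Without wild-type carrier replicate 1 the wild-type value was 1.15 and the average 0.31, and for 92472_f_at the average was then -0.38. These values share arrays with the genotype differences by which Slfn2 was chosen, so they carry no test. For Med1 the same values were 0.14 ± 0.25 and -0.40 ± 0.25, and for 97368_at of Akap1 0.10 ± 0.32 and 0.14 ± 0.32. The wild-type value of 97368_at turned to -0.31 and its average to -0.10 without wild-type carrier replicate 1, and the averages of 97367_at and 97369_g_at were then 0.00 and -0.10. Slfn4 was at -0.64 ± 0.25 (adjusted p = 0.969), lower after CCL3 in both genotypes. Over all tested probe sets 4.53% had an unadjusted p under 0.05 for CCL3, both directions together, and shares by direction were not counted. Of the 19 interferon response probe sets 3 were lower at that threshold and 0 higher. These were Gbp2 (-0.59, adjusted p = 0.969) and both probe sets of Iigp1 (-1.49 and -0.81, adjusted p = 0.967 each), which encode interferon-induced GTPases. Of the 14 neutrophil probe sets 3 were lower too, both of Il1r2 (-0.96 and -0.80), a decoy receptor for interleukin-1, and 1 of Lcn2 (-0.64), and 0 were higher. Of the 10 red blood cell probe sets 3 were higher and 0 lower: Hbb-b2 (0.86), Alas2 (0.85) and Hba-a1 (0.60). No adjusted p of these was under 0.05, and the part of such cells in the Slfn4 and interferon values was not tested.

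Along chromosome 11, the members lie on both sides of Ccl3. In the order of the 3087 genes that the GRCm38.p6 gene table holds for that chromosome, Slfn2 lies 35 genes before Ccl3, Akap1 141 genes after it and Med1 378 genes after it. Within 25 genes of Ccl3 on either side 8 probe sets were tested, and the Ccl3 probe set alone was separated. Within 100 genes 40 were tested, and 2 were separated and higher, Ccl3 and Rnft1, a ring finger protein gene 69 genes after it. Rnft1 had a mean of 1135 ± 222 on the arrays labelled Ccl3-/- and 742 ± 44.8 on the wild-type arrays (SD, n = 4 each), a difference of 0.53 ± 0.18 (SE).

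Over the whole of chromosome 11, 31 of 662 tested probe sets were separated, or 28 without Ccl3, Med1 and Akap1. The 31 make 4.68%, which the choice of Med1 and Akap1 on this chromosome raises. Without Ccl3 and the 6 member probe sets it was 28 of 655, or 4.27%, against 3.19% over all tested probe sets. Chromosomes 18 (5.35%) and 7 (4.39%) were above it, and the lowest of the 20 chromosomes had 1.58%. Most of the separated probe sets of chromosome 11 were lower on the arrays labelled Ccl3-/-: 25 of the 662, or 3.78%, against 1.88% over all tested probe sets. By this share chromosomes 7 (3.51%) and 18 (3.21%) came next. The higher ones of chromosome 11 numbered 6, or 0.906%, and 3 (0.458%) without Ccl3 and the members, against 1.31% over all.

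The places of the higher and lower probe sets along chromosome 11 were looked at after their values were known, and were not tested. The 3 higher ones that are neither Ccl3 nor a member were Cpd, 2610507B11Rik and Rnft1, at -224, -163 and 69 genes from Ccl3. Akap1 and Med1 lie where the choice of members put them. The 25 lower ones ran from -1512 to 1161 genes from it, negative places being before Ccl3. The range of 3 places tends to be narrower than that of 25 by number alone. Within 400 genes of Ccl3 on either side 179 probe sets were tested, of which 8 were separated and lower and 6 separated and higher. Of those 6, 3 were neither Ccl3 nor a member. Cpd, which encodes carboxypeptidase D, had a mean of 1219 ± 278 on the arrays labelled Ccl3-/- and 702 ± 172 on the wild-type arrays (SD, n = 4 each), a difference of 0.72 ± 0.24 (SE). 2610507B11Rik was at 0.42 ± 0.19.

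**Figure D4:**
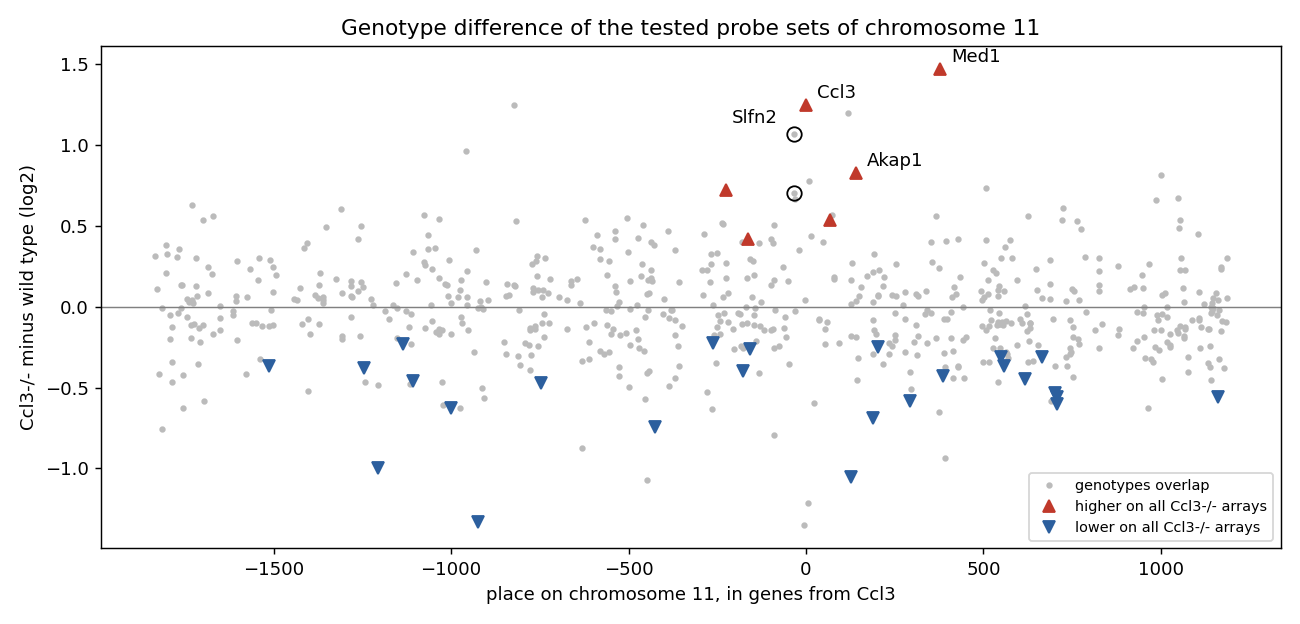
Genotype difference averaged over both injections (Ccl3-/- minus wild type, log2 scale) of the 662 tested probe sets of chromosome 11, placed by gene order from Ccl3, with triangles where the 4 arrays of each genotype did not overlap and circles for the 2 probe sets of Slfn2. The 6 upward triangles include Ccl3 itself and the chosen Akap1 and Med1, and the other 3 lie at -224, -163 and 69 genes from Ccl3. The 25 downward ones run from -1512 to 1161, a range that their larger number alone tends to widen, and the places were not tested.

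Few genes next to the members were tested, and their values were mixed. Within 10 genes of Med1 the array tested 3 probe sets of 2 genes. Neurod2, a neuronal transcription factor gene 7 genes after Med1, was separated in the opposite direction (-0.43 ± 0.26), but narrowly. Its highest Ccl3-/- array had 293.6 and its lowest wild-type array 294.6. The mean was 252 ± 41.0 on the arrays labelled Ccl3-/- and 378 ± 92.9 on the wild-type arrays (SD, n = 4 each). Every array labelled Ccl3-/- was under the filter value, which only the wild-type arrays of 480.5 and 432.4 exceeded. Neurod2 was thus tested through the genotype in which it was higher. The ribosomal protein gene Rpl19, 3 genes before Med1, was at -0.65 ± 0.26 and 0.24 ± 0.18 by its 2 probe sets. Within 10 genes of Akap1, Cuedc1, Scpep1, Coil and Trim25 ran from -0.46 to 0.27 and none was separated. Within 10 genes of Slfn2, Slfn4 was at 0.66 ± 0.25, in the direction of Slfn2, and Slfn1 at -0.03 ± 0.26, and neither was separated. Beside Ccl3, the chemokine gene Ccl9 was at -1.35 ± 0.42 and Ccl6 at 0.04 ± 0.22, and both overlapped between genotypes. The whey acidic protein family genes Wfdc18 and Wfdc21, also within 10 genes, were at -1.21 ± 0.29 and 0.78 ± 0.26 (SE, n = 4 per genotype, adjusted p = 0.808 each in limma), and overlapped as well. Without Ccl3-/- carrier replicate 2 Wfdc18 was at -1.61, with an adjusted p of 0.0404 in limma.

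**Figure D5:**
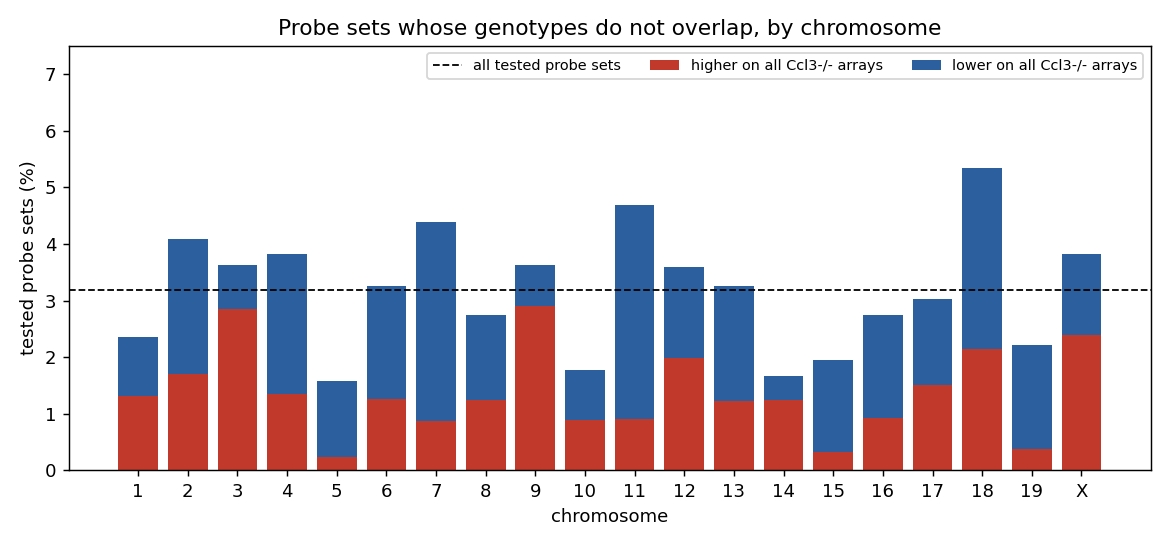
Share of tested probe sets (percent) whose 4 arrays labelled Ccl3-/- did not overlap the 4 wild-type arrays, by chromosome, with red for those higher and blue for those lower on the arrays labelled Ccl3-/- and a dashed line at the share over all tested probe sets (3.19%). Chromosome 11 stands at 4.68%, of which 0.906% is higher, with Ccl3 and the members included, and at 4.27% without them.

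The genes most like each member were found by the mean absolute difference between centred log2 values over the 8 arrays. Among the tested probe sets of other named genes, the one closest to Med1 was Ccl3, at 0.30 against a median of 0.76 over all of them. Next came Asb6 (0.32) and Vav2 (0.32), both on chromosome 2. Asb6, a gene of the ankyrin repeat and SOCS box family, had an intensity of 842.8 and 933.8 on the Ccl3-/- CCL3 arrays and 310.7 and 374 on the wild-type CCL3 arrays. It had 631.5 and 609.4 on the Ccl3-/- carrier arrays and 345.3 and 463.1 on the wild-type carrier arrays. The 3 closest to 97368_at of Akap1 were the histone deacetylase gene Hdac1 (0.15), Sgip1 (0.15) and the ubiquitin ligase gene Rnf13 (0.16), against a median of 0.48. None of these 3 lies on chromosome 11.

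The probe sets of Slfn2 and the unseparated ones of Akap1 had other companions. For 92471_i_at these were Ppie (0.24), Acy3 (0.26) and Mea1 (0.27), against a median of 0.74. All 3 were low on both wild-type carrier arrays, as Slfn2 was: Acy3 had 150.7 and 385 there, against 811.7 and 1025.6 on the Ccl3-/- carrier arrays. For 92472_f_at they were Tk1 (0.10), which encodes the thymidine kinase of dividing cells, Pla2g4f (0.19) and the replication helicase gene Mcm7 (0.19), against a median of 0.60. Tk1 had 378.2 and 1320.4 on the wild-type carrier arrays, with wild-type carrier replicate 1 low as in Slfn2. For 97367_at the closest were Sult2b1 (0.06), Fam102a (0.06) and Gabarapl2 (0.06), and for 97369_g_at Nudt16l1 (0.05), Parn (0.05) and Aldh3a2 (0.06). Such likeness rests on arrays shared by all genes and includes the genotype differences by which the members were chosen, so it was given no test.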

How the data were processed

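The deposited table gives, for every array, the linear intensity of each probe set that the authors' processing produced. The software is not given in the sources used here. Trimmed means of the arrays differed by 0.00834% of their mean, so the deposited values were not normalized again. Gene symbols came from the platform annotation and were updated through the GRCm38.p6 gene table, in which 10839 of 10855 probe sets with 1 gene were found. That table was used for names and gene order only.

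Values were analysed as log2(intensity + 102.3), the 20th percentile of the table. Probe sets with at least 2 arrays above 362.7, the 40th percentile, were tested, without 66 control probe sets. limma 3.58.1 (R 4.3.3) fitted all 4 groups with an intensity trend, 4 residual degrees of freedom and Benjamini-Hochberg adjustment over 8150 probe sets. Errors named SE are moderated. "Separated" means that the 4 arrays of each genotype do not overlap.

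The members and gene lists were chosen with earlier results of these data known. Named genes were all member probe sets, Ccl3, the 3 probe sets most like each member, list members past an unadjusted p of 0.05 for genotype or separated (up to 4 per list and direction), and separated neighbours. Cdk8, Ccnc, Med24, Thra, Akap8, Prkar2a, Prkar1a, Slfn1, Omp, Iigp1, Gbp2, Il1r2, Lcn2, Hbb-b2, Hba-a1, Timm44, Wfdc18, Wfdc21, Rpl19, Cuedc1, Scpep1, Coil, Trim25, Ccl6, Cpd and 2610507B11Rik were added after their values were seen. Replicate numbers did not pair the arrays: correlations of deviations ran from -0.16 to 0.18, with 2 of 6 above 0.1. The fit was tested on simulated data. Other normalizations, pseudocounts, filters, no trend, a replicate block and each array left out were tried. Figures were drawn with matplotlib 3.10.9.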

Additional observations from a re-analysis of the deposited data

Results flagged for a closer look

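Med1 on Ccl3-/- carrier replicate 1 stood away from the other arrays of its genotype, with an intensity of 1133.2 against 1384.8 to 1418.3, a gap larger than chance gives in about 1 of 20 groups. That rate is for arrays of a single condition, while these 4 arrays pool both injections. With 6 member probe sets in each genotype, a gap of this size can also come by chance. Med1 on that array was still above every wild-type array (highest 493.3).

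The Slfn2 probe set 92471_i_at went in opposite directions with CCL3 in the 2 genotypes: both Ccl3-/- CCL3 arrays (1286 and 966.5) were below both Ccl3-/- carrier arrays (1329.1 and 2072.7), and both wild-type CCL3 arrays (1190.4 and 1170.5) were above both wild-type carrier arrays (147.1 and 477.5). The difference between the CCL3 effects was -2.29 ± 0.56 on the log2 scale (SE), and -1.68 without wild-type carrier replicate 1, with a wild-type effect of 1.15 in place of 1.75. It was not tested, because Slfn2 was chosen by genotype differences over the same arrays.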

How the results depend on the processing

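Under 8 other settings (7 for 97367_at and 92472_f_at, which the filter at the 60th percentile removed) the genotype difference kept its sign for each of the 6 probe sets, with Med1 between 1.12 and 1.63, 97368_at between 0.72 and 0.87 and 92471_i_at between 0.79 and 1.23. Med1 was at 1.12 with the pseudocount at the 40th percentile and 1.63 at the 5th, by construction of the scale. Leaving out each array gave 1.40 to 1.54 for Med1, -0.29 to -0.09 for 97367_at, 0.60 to 1.05 for 97368_at, -0.06 to 0.13 for 97369_g_at, 0.77 to 1.37 for 92471_i_at and 0.23 to 1.18 for 92472_f_at. For CCL3 against carrier the same ranges were -0.20 to -0.06, 0.00 to 0.21, -0.10 to 0.34, -0.118 to 0.0730, 0.31 to 0.91 and -0.38 to 0.57. The sign also turned for 97369_g_at with one median for all arrays (0.00307) and for 92472_f_at with the pseudocount at the 40th percentile (-0.00805), where the values lie near 0. No member passed an adjusted p of 0.05 for CCL3 in any setting (lowest 0.126).

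Over the table, 107 probe sets were separated and higher and 153 lower, and 163 to 352 and 215 to 429 with an array left out, where fewer arrays must be separated. On chromosome 11 the count was 31, and 41 to 77 with an array left out. With no filter 250 were lower. Genotype counts at an unadjusted p under 0.05 were 483, 320 with the filter at the 60th percentile and 220 to 1164 with an array left out. For CCL3 they were 369, 220 with that filter, 646 with no filter and 175 to 1267 with an array left out. Counts at an adjusted p under 0.05 were 0, and 0 to 6 for genotype and 0 to 20 for CCL3 with an array left out, the highest without wild-type carrier replicate 2, which leaves the array with the Gapdh ratio of 2.59 alone in its group, and 1 for genotype without Ccl3-/- carrier replicate 2. With the replicate block, 1 probe set passed for genotype (Ngp) and 1 for CCL3, with no gene name, and no member did. With the brightest probe set of each gene 25 of 28 list counts stayed within 1.5 times. The other 3 were the separated Mediator gene (0 in place of 1, Med22), the protein kinase A gene past an unadjusted p of 0.05 (0 in place of 1, Creb1) and the T, B and NK cell markers past it (1 in place of 3). Precision is limited by having 2 arrays in a group.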
